A study of Mus musculus with 2 samples.

Results

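The cells described are Kupffer cells of the library whose barcodes end in 1, divided by their RNA for Marco. Of the 18633 barcodes in the deposited matrix, 8907 belong to this library, here library 1, and 1106 of them met the definition of a Kupffer cell. Among these, 326 cells held at least 3 Marco UMIs (unique molecular identifiers, each marking 1 captured transcript) and are called Marco-positive. A further 486 cells held 0 Marco UMIs and are called Marco-negative, and 294 cells with 1 or 2 fell in neither side. The members were chosen by measured values: at least 200 genes and 3000 UMIs, at most 20% mitochondrial UMIs, a summed share of Clec4f, Cd5l and C1qa of at least 1%, a summed share of 6 endothelial genes (Ptprb, Kdr, Clec4g, Oit3, Gpr182 and Egfl7) under 0.05%, and the Marco count itself. Every value taken from these cells therefore describes them and none was tested.

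The series holds nonparenchymal liver cells selected on F4/80 from 2 males, 8 to 10 weeks of age, 1 of genotype Spta sph/sph and 1 of genotype Spta wt/wt. The sph allele alters alpha-spectrin, a protein of the red cell skeleton, and homozygotes have fragile red cells. Cells were captured with antibody-coated magnetic beads and their transcripts were tagged at the 3' end in droplets. The labels do not tie either barcode ending to a mouse, so no genotype is attached to library 1 or to library 2, and with 1 mouse per genotype no difference has a replicate check.

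Kupffer cells are the resident macrophages of the liver sinusoids, where they take up bacteria, particles and ageing or damaged red cells from portal and arterial blood. Marco is a class A scavenger receptor with a collagen-like stalk that binds bacteria, inert particles and modified lipoproteins. In mouse liver it is known to be more abundant on Kupffer cells near portal veins than on those near central veins.

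Promoters are shown for the gene that divided the cells, for Cxcl13, the gene with the largest ratio between the sides, and for Pclaf and Top2a, which belong to the cell-cycle group that was higher in Marco-positive cells. Each sequence is the coding strand from 250 bases before to 50 bases after the annotated start, from RefSeq on GRCm38.p6. The windows are chr1:120504975-120505274 on the minus strand for Marco, chr5:95956689-95956988 on the plus strand for Cxcl13, chr9:65890073-65890372 on the plus strand for Pclaf and chr11:99024140-99024439 on the minus strand for Top2a. Capitals mark matches, on either strand, to 6 motifs: CCAAT (the NF-Y box), TTTGAA (a form of the cell-cycle homology region), TTTGGCGC and TTTCGCGC (forms of the E2F site), TGACNNNGC (the core of the antioxidant response element) and TGANTCA (the AP-1 site).
Marco: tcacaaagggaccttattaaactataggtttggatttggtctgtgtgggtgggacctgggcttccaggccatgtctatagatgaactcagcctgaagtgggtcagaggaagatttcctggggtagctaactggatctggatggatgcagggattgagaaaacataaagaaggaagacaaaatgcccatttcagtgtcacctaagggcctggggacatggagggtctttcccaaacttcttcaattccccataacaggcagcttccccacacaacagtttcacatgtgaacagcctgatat
Cxcl13: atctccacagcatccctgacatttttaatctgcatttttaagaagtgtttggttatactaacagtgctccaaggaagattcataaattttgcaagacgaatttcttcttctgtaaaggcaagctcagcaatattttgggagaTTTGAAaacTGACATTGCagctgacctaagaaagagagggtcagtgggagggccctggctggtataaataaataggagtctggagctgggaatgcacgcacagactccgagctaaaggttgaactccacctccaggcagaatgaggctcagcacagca
Pclaf: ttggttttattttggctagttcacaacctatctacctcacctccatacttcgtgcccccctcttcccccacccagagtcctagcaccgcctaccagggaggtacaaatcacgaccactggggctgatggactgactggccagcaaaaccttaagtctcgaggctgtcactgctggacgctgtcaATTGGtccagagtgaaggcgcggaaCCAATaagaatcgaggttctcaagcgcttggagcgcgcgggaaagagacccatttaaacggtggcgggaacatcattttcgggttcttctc
Top2a: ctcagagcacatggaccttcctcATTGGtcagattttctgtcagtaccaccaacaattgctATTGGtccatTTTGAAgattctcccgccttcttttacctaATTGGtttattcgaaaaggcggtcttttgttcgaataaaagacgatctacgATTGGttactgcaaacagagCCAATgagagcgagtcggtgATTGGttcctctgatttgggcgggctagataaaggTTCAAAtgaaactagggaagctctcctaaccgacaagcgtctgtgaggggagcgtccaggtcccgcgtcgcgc
The Top2a window held 6 CCAAT and 2 TTTGAA matches. The Pclaf window held 2 CCAAT matches. The Cxcl13 window held 1 TTTGAA and 1 TGACNNNGC match, which lie side by side, and the Marco window held none of the 6 motifs. Among 32851 mouse promoter windows of this length, 37.4% hold CCAAT, 17.9% TTTGAA, 12.4% TGACNNNGC, 7.81% TGANTCA, 0.514% TTTGGCGC and 0.323% TTTCGCGC. A match is a description of the letters and not evidence of binding.

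Marco RNA was unevenly spread over the Kupffer cells of library 1. Cells with 0, 1, 2, 3 to 4, 5 to 9 and 10 or more Marco UMIs numbered 486, 195, 99, 97, 112 and 117. The 117 cells with 10 or more held 61.4% of the 3819 Marco UMIs, and the 326 Marco-positive cells held 89.7%. Marco-positive cells had a median of 7 Marco UMIs and a highest value of 95. Their share of all 1106 cells was 29.5% (exact binomial 95% interval 26.8 to 32.3, which, like every interval given here, covers counting error only).

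**Figure D1:**
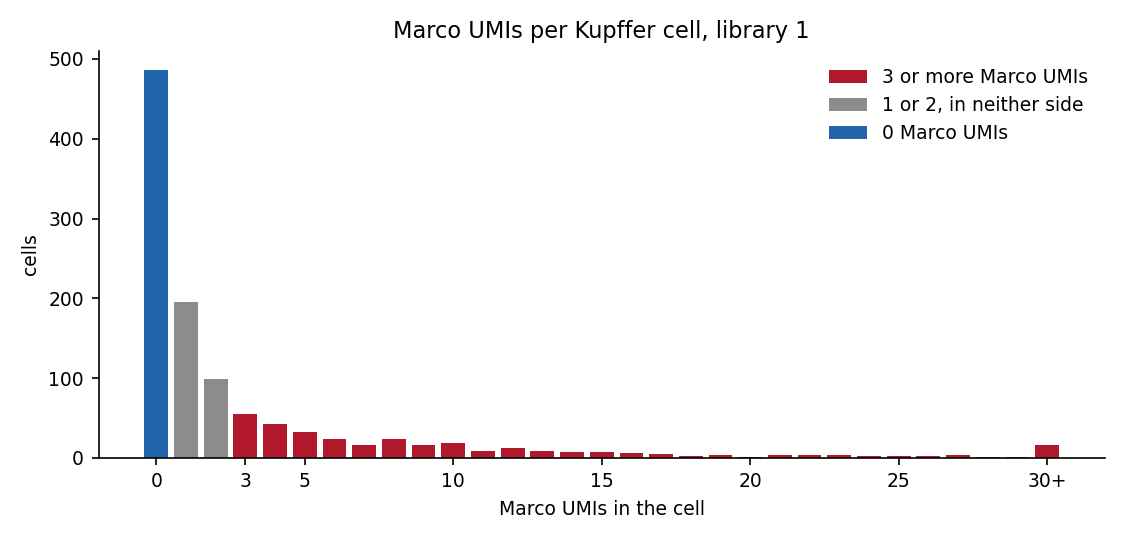
Number of Kupffer cells of library 1 (vertical axis) by Marco UMIs in the cell (horizontal axis, with 30 or more pooled at the right). Red bars are Marco-positive cells, grey bars the cells in neither side and the blue bar the 486 Marco-negative cells. Counts fall off from 0 with no gap at the threshold of 3.

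The sides differed in depth. Marco-positive cells had a median of 7169.5 UMIs (quartiles 5296 and 9962.75) and 2720.5 genes, against 6115.5 UMIs (4414.75 and 8396.25) and 2450 genes in Marco-negative cells. Median mitochondrial shares were 13.4% in Marco-positive and 12.9% in Marco-negative cells. Just inside the threshold, 55 cells with exactly 3 Marco UMIs had a median of 7235 UMIs, and just outside it, 99 cells with exactly 2 had 7308. When every cell was thinned at random to 3000 UMIs, 17.6% kept at least 3 Marco UMIs, 40.9% kept at least 1 (56.1% before thinning) and 59.1% had 0 (43.9% before thinning). A Marco-negative cell is thus a cell without a captured Marco transcript at its depth, which is not the same as a cell without Marco RNA.

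Endothelial cells of the same library, which should lack Marco, gave the background. They were cells with at least 0.5% of UMIs from the 6 endothelial genes and under 0.5% from Clec4f, Cd5l and C1qa. Of 138 such cells, with a median depth of 4025 UMIs, 0 held 3 or more Marco UMIs, which allows a share of up to 2.17% (the limit that a count of 0 allows, taken as 3 cells of 138), and 13.8% held 1 or 2. After thinning to 3000 UMIs, 40.9% of Kupffer cells had at least 1 Marco UMI, against 7.97% of endothelial cells. In library 2, 2463 cells met the same definition, and none had fewer than 3 Marco UMIs (median 106, highest 676), so the same division could not be made there. Marco stood at 465 CPM (UMIs of a gene scaled to 1000000 UMIs of the cells summed) in the Kupffer cells of library 1, against 13027 CPM in those of library 2.

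The label was checked against Kupffer markers that the definition did not use. The 6 remaining markers summed to 6185 CPM in Marco-positive and 6476 CPM in Marco-negative cells (log2 ratio -0.07, -0.10 to -0.04). Of the 6, 1 was higher and 5 were lower in Marco-positive cells, and none was at 0 in either side. The Clec4f, Cd5l and C1qa share had medians of 1.61% in Marco-positive and 1.62% in Marco-negative cells. This share admitted the cells of both sides, so it is a description and no check. Both sides carried the 6 markers outside the definition at nearly the same level, slightly lower in Marco-positive cells.

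UMIs of each gene were summed over the cells of a side and scaled to CPM by the side's total without Marco, which was 2711447 UMIs in Marco-positive and 3316292 UMIs in Marco-negative cells. Few genes apart from Marco differed by much. Of 3466 genes with at least 50 CPM and 30 UMIs in either side, 9 (0.26%) were higher by 1.5-fold or more in Marco-positive cells and 4 (0.115%) were lower by as much. The log2 ratio of Marco-positive over Marco-negative cells had a median of -0.01 and ran from -0.29 to 0.26 between its 5th and 95th percentiles, and 94.4% of the genes lay within 1.25-fold.

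**Figure D2:**
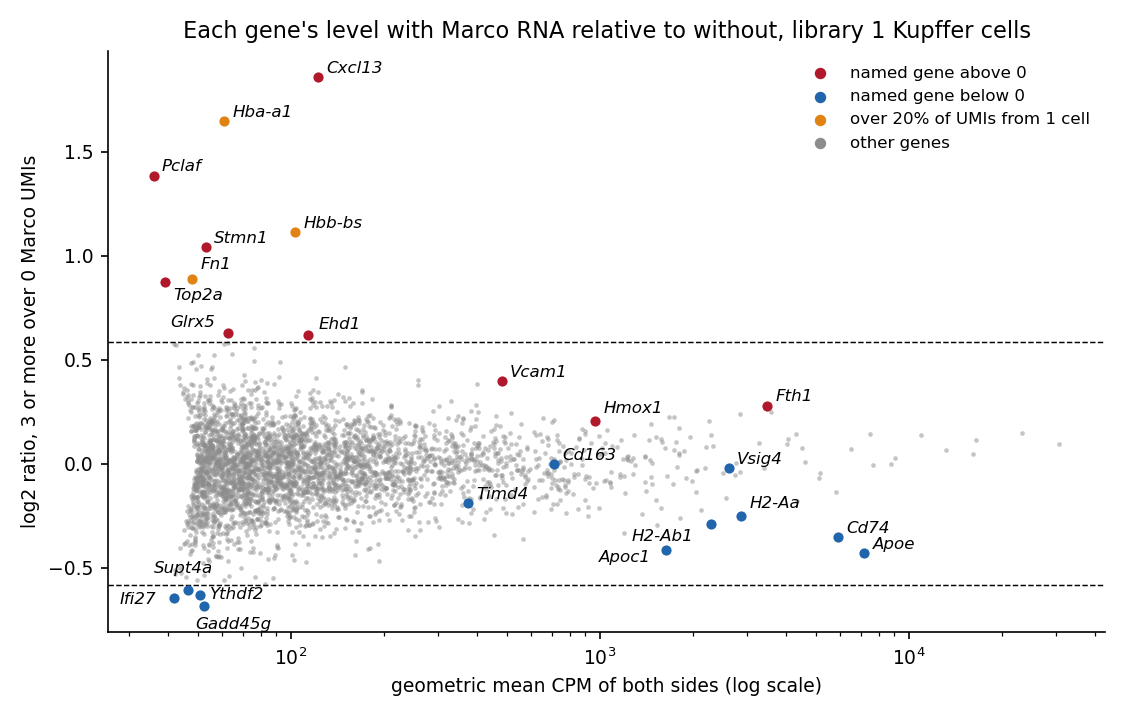
Log2 ratio of Marco-positive over Marco-negative cells (vertical axis) against the geometric mean CPM of both sides (horizontal axis, log scale) for the 3466 genes, with dashed lines at 1.5-fold. The 9 genes above the upper line include 3, in orange, whose UMIs come largely from 1 cell, and abundant genes such as Cd74 and Apoe lie below 0 inside the lines.

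Cxcl13, a chemokine that attracts B cells through the receptor Cxcr5, had the largest ratio. It stood at 233.8 CPM (95% interval 216 to 253) in Marco-positive cells and at 64.5 CPM (56.2 to 73.8) in Marco-negative cells, a 3.62-fold difference (3.10 to 4.25). The gene lies at chr5:95956951-95961068 on the plus strand. The level was 64.5, 60.3, 83.2, 160.5, 141.1 and 364.2 CPM in cells with 0, 1, 2, 3 to 4, 5 to 9 and 10 or more Marco UMIs. It was thus near the Marco-negative level in cells with 1 Marco UMI and highest in the cells with the most Marco.

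The Cxcl13 difference lay in many cells. At least 1 Cxcl13 UMI was found in 38.7% of Marco-positive and 20.6% of Marco-negative cells, and after thinning in 23.01% (18.5 to 28.0) of Marco-positive and 9.67% (7.19 to 12.7) of Marco-negative cells. The background in thinned endothelial cells was 4.35%, or 6 of 138 cells. Cells with 5 or more Cxcl13 UMIs numbered 39 (11.96%) on the Marco-positive and 10 (2.06%) on the Marco-negative side. The 5 richest cells held 26.3% of the Cxcl13 UMIs in Marco-positive and 27.1% in Marco-negative cells. Most Marco-positive cells still had no Cxcl13 UMI. Without the 29 cells whose barcode sequence also occurs in library 2, the log2 ratios were 1.95 for Cxcl13, 1.58 for Pclaf, -0.40 for Cd74 and -0.42 for Apoe.

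Genes of the cell cycle formed the other group that was higher in Marco-positive cells. Of 16 proliferation genes with at least 10 CPM in either side, all 16 had ratios above 0, 6 were past 1.5-fold upwards and 0 downwards. Among all 8259 genes with that minimum, 2.14% were higher by 1.5-fold or more, 2.17% were lower by as much and 47.4% had ratios above 0. The median log2 ratio of the 16 was 0.44, against -0.02 over all 8259. This median depended on the cells used: it was 1.16 in cells of 3000 to 5000 UMIs, 1.06 in cells of 5000 to 8000 and 0.04 in cells of 8000 or more, where Mki67 was at -0.19. It was 0.07 in cells with a Kupffer marker share of at least 2%, which left 35 Marco-positive and 60 Marco-negative cells. Without cells holding 3 or more UMIs of 9 cell-cycle genes it was 0.16. Those 9 genes belong to the list itself, so this last value is not independent of how the cells were left out. Because the list shares its few dividing cells, its members are not separate observations.

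Pclaf, which binds the replication clamp PCNA, stood at 58.3 CPM in Marco-positive and 22.3 CPM in Marco-negative cells (158 and 74 UMIs; log2 ratio 1.38, 0.98 to 1.80). Stmn1, a regulator of microtubule assembly, stood at 76.3 CPM in Marco-positive and 37.1 CPM in Marco-negative cells (207 and 123 UMIs; log2 ratio 1.04, 0.71 to 1.38). Top2a, the topoisomerase that untangles replicated DNA, stood at 53.1 CPM in Marco-positive and 28.9 CPM in Marco-negative cells (144 and 96 UMIs; log2 ratio 0.88, 0.49 to 1.26). Rrm2, a subunit of ribonucleotide reductase, and Birc5, a survival factor of mitotic cells, had log2 ratios of 1.36 and 1.13 on 61 and 52 UMIs in Marco-positive cells, against 29 UMIs each in Marco-negative cells. The ratios of the other members were smaller, such as 0.28 for the proliferation antigen Mki67, 0.40 for the tubulin Tubb5, 0.27 for Pcna itself and 0.04 for the mitotic kinase Cdk1.

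These transcripts came from few cells. The 5 richest cells held 53.2% of the Pclaf UMIs in Marco-positive and 68.9% in Marco-negative cells. Cells with 3 or more UMIs from 9 cell-cycle genes after thinning numbered 23 of 326 Marco-positive cells (7.06%, 4.52 to 10.4) and 14 of 486 Marco-negative cells (2.88%, 1.58 to 4.79). Before thinning they numbered 33 Marco-positive (10.1%) and 24 Marco-negative cells (4.94%). Such a cell-cycle count was combined with a Cxcl13 UMI after thinning in 2 Marco-positive and 0 Marco-negative cells. With so few cell-cycle cells, whether they differ from the others in Cxcl13 was not tested. By Marco UMI count, Pclaf was at 22.3, 17.2, 35.8, 24.3, 65.0 and 76.2 CPM and Stmn1 at 37.1, 19.4, 93.4, 62.0, 88.2 and 76.2 CPM from 0 to 10 or more. Neither followed Marco in even steps, and Stmn1 was highest in cells with 2 Marco UMIs.

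**Figure D3:**
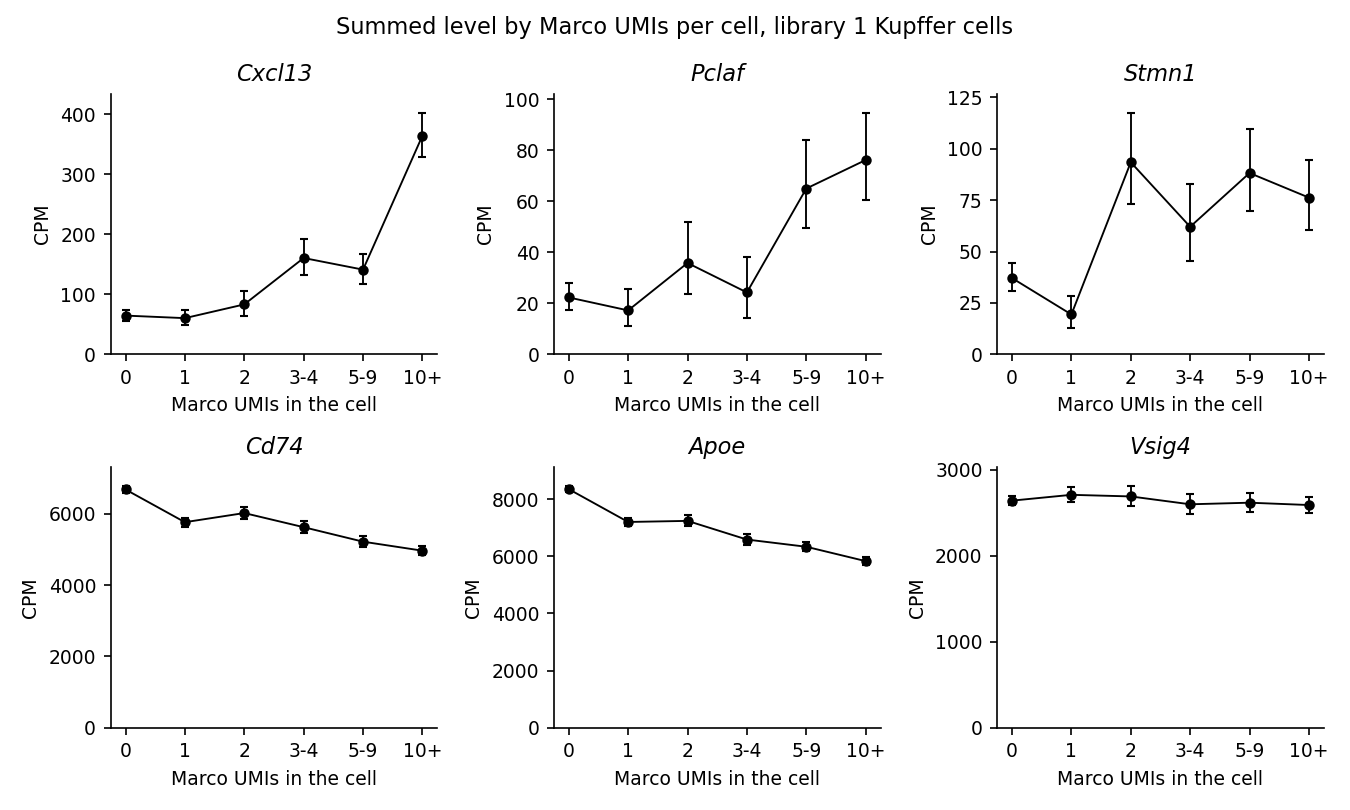
Summed level in CPM (vertical axes, each from 0) of 6 genes in cells of library 1 grouped by Marco UMIs (horizontal axes), with exact Poisson 95% intervals as bars. Cxcl13 is highest in cells with 10 or more Marco UMIs, Cd74 and Apoe are lowest there, and the Kupffer marker Vsig4 lies between 2589 and 2707 CPM in all 6 groups.

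Glrx5 and Ehd1 also passed 1.5-fold, and Kif23 and Wdr33 came close, with UMIs from many cells. Glrx5, a mitochondrial glutaredoxin of iron-sulfur cluster assembly, stood at 78.2 CPM in Marco-positive and 50.7 CPM in Marco-negative cells (log2 ratio 0.63, 0.33 to 0.93). Ehd1, which recycles endocytosed membrane, stood at 141.3 CPM in Marco-positive and 92.0 CPM in Marco-negative cells (0.62, 0.40 to 0.84). Kif23, a kinesin of cytokinesis, and Wdr33, a polyadenylation factor, each had a log2 ratio of 0.58, but that of Kif23 was -0.59 in cells with a Kupffer marker share of at least 2%. The remaining 7 of the 15 highest genes had log2 ratios from 0.58 down to 0.49. They were Cela1, an elastase, Cuedc2, Mrpl28, a protein of the mitochondrial ribosome, Dmwd, Alyref, an mRNA export factor, Enpp1, a nucleotide pyrophosphatase, and C2, a complement component.

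The last 3 genes past 1.5-fold rested on single cells. Hba-a1, an alpha-globin, had 292 UMIs in Marco-positive and 114 in Marco-negative cells, of which 1 cell held 270 and 1 cell held 90. Hbb-bs, a beta-globin, had 412 UMIs in Marco-positive and 233 in Marco-negative cells, of which 1 cell held 400 and 1 cell held 207. Fn1, fibronectin, had 177 UMIs in Marco-positive and 117 in Marco-negative cells, of which 1 cell held 93 and 1 cell held 41. Without the 3 richest cells of each side, the log2 ratios of Hba-a1, Hbb-bs and Fn1 were 0.55, -0.85 and -0.21. Reads of the near-identical alpha-globin copies may also be divided between them by the counting.

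The genes lower in Marco-positive cells had small ratios and moderate counts. Gadd45g, a gene of growth arrest and stress, stood at 41.3 CPM in Marco-positive and 66.3 CPM in Marco-negative cells (112 and 220 UMIs; log2 ratio -0.68, -1.02 to -0.35). Its level was 66.3, 58.1, 61.4, 44.5, 39.7 and 40.5 CPM from 0 to 10 or more Marco UMIs. Ifi27, an interferon-induced gene, Ythdf2, a reader of methylated mRNA, and Supt4a, a transcription elongation factor, had log2 ratios of -0.64, -0.63 and -0.61. The other 11 of the 15 lowest lay between -0.58 and -0.50. Pck1 and Bhmt, enzymes abundant in hepatocytes, and Dcn, a matrix protein of stellate cells, were among them at -0.58, -0.54 and -0.50, and Dcn was at 1.10 in cells with a Kupffer marker share of at least 2%. Jun, an AP-1 subunit, stood at 43.5 CPM in Marco-positive and 63.0 CPM in Marco-negative cells. The rest were Prpf39, Il17ra, Nbr1, St3gal6, Rictor, Pcf11 and Nrf1.

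MHC class II genes, which present extracellular antigen to CD4 T cells, were lower together by less than 1.5-fold. All 7 members with at least 10 CPM had ratios below 0, 0 of them past 1.5-fold, with a median log2 ratio of -0.29. Of all 8259 genes with that minimum, 2.17% were at least 1.5-fold lower. In cells with a Kupffer marker share of at least 2%, which left 35 Marco-positive and 60 Marco-negative cells, the MHC class II median was -0.05. Cd74, the invariant chain, stood at 5229 CPM in Marco-positive and 6680 CPM in Marco-negative cells (log2 ratio -0.35, -0.38 to -0.32). H2-Aa, an alpha chain, stood at 2635 CPM in Marco-positive and 3139 CPM in Marco-negative cells (-0.25), and the beta chains H2-Ab1 and H2-Eb1 had log2 ratios of -0.29 and -0.30. H2-DMb1, which helps load peptide, was at 426 CPM in Marco-positive and 430 CPM in Marco-negative cells. Cd74 was at 6680, 5763, 6020, 5623, 5217 and 4965 CPM from 0 to 10 or more Marco UMIs.

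Markers of conventional dendritic cells were counted because such cells are rich in MHC class II. Their 10 genes summed to 1170 CPM in Marco-positive and 1437 CPM in Marco-negative cells, of which Cst3, which macrophages also express, made up 1066 CPM in Marco-positive cells. The log2 ratio of this sum was -0.30 (-0.36 to -0.23), with 4 genes higher and 4 lower. Ccr7 and Siglech were at 0 in both sides and Flt3 was at 0 in Marco-negative cells. In endothelial cells Cd74 stood at 190 CPM. The part of dendritic cells or of background RNA in the MHC class II ratios was not tested.

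Apoe and Apoc1, apolipoproteins of macrophages and hepatocytes, were also lower. Apoe stood at 6206 CPM in Marco-positive and 8349 CPM in Marco-negative cells (log2 ratio -0.43, -0.46 to -0.40) and Apoc1 at 1418 CPM in Marco-positive and 1888 CPM in Marco-negative cells (-0.41). Apoe was at 8349, 7201, 7239, 6586, 6334 and 5831 CPM from 0 to 10 or more Marco UMIs. Hepatocyte markers moved the same way by less, with a sum of 2993 CPM in Marco-positive and 3318 CPM in Marco-negative cells. Of 18 hepatocyte markers 16 were lower, while 47.4% of all genes with at least 10 CPM had ratios above 0. The part of hepatocyte RNA in the Apoe, Apoc1, Pck1 and Bhmt differences was not tested. Endothelial cells, the comparison for free RNA, held 2862 CPM of Apoe, and all 138 had an Apoe UMI after thinning.

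Genes that define Kupffer cells differed by less than 1.5-fold. None of 25 identity genes passed 1.5-fold, and their median log2 ratio was -0.04. That count is close to the share over all 8259 genes with at least 10 CPM, of which 2.14% were higher and 2.17% lower by as much. Vsig4, the complement receptor of Kupffer cells, stood at 2600 CPM in Marco-positive and 2640 CPM in Marco-negative cells. Timd4, a receptor for dying cells, stood at 352 CPM in Marco-positive and 401 CPM in Marco-negative cells, and Cd163, the receptor for haptoglobin-bound hemoglobin, at 712 CPM in Marco-positive and 714 CPM in Marco-negative cells. Slc40a1, the iron exporter ferroportin, stood at 3390 CPM in Marco-positive and 3438 CPM in Marco-negative cells.

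Most other scavenger receptors had ratios near 0. Of 14 with at least 10 CPM, 1 was at least 1.5-fold higher and 0 lower, with a median log2 ratio of -0.04. Among all 8259 genes with that minimum, 2.14% were at least 1.5-fold higher and 2.17% lower by as much. Msr1, the closest class A relative in the list, stood at 445 CPM in Marco-positive and 455 CPM in Marco-negative cells, and the mannose receptor Mrc1 at 1076 CPM in Marco-positive and 1105 CPM in Marco-negative cells. The lipid scavenger Cd36 stood at 233 CPM in Marco-positive and 200 CPM in Marco-negative cells. The 1 scavenger receptor past 1.5-fold was Cd209f, a lectin, on 46 UMIs in Marco-positive and 28 in Marco-negative cells.

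Heme and iron genes, which handle the contents of ingested red cells, had 0 of 20 members past 1.5-fold and a median log2 ratio of 0.08. Few of all 8259 genes with at least 10 CPM passed 1.5-fold either, 2.14% upwards and 2.17% downwards. Hmox1, the heme-degrading enzyme, stood at 1038 CPM in Marco-positive and 901 CPM in Marco-negative cells (log2 ratio 0.20, 0.13 to 0.28). Fth1, the ferritin heavy chain, stood at 3840 CPM in Marco-positive and 3164 CPM in Marco-negative cells (0.28), while the light chain Ftl1 stood at 5006 CPM in Marco-positive and 5253 CPM in Marco-negative cells (-0.07). Slc48a1, a heme transporter of the phagolysosome membrane, had a log2 ratio of 0.34, and Spic, the transcription factor of iron-recycling macrophages, 0.23. In cells with a Kupffer marker share of at least 2%, Hmox1 was at -0.15 and Spic at -0.31. Slc11a1, a phagosomal metal transporter, and Bach1, the heme-sensitive repressor of Hmox1, lay below 0, with log2 ratios of -0.33 each.

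Inflammatory genes lay on both sides of 0, and most immediate early genes lay slightly below it. Of all 8259 genes with at least 10 CPM in either side, 2.14% were at least 1.5-fold higher, 2.17% lower by as much and 47.4% above 0. The 15 measured cytokine and NF-kB genes had a median log2 ratio of -0.04, with 7 above 0, 8 below 0, 1 at least 1.5-fold higher and 0 lower. The 1 was Relb, an NF-kB subunit, on 30 UMIs in Marco-positive and 22 in Marco-negative cells, with an interval that spans 0 (log2 ratio 0.74, -0.10 to 1.60). Il1b, an inflammatory cytokine, stood at 135 CPM in Marco-positive and 167 CPM in Marco-negative cells. Tnf had 3 UMIs in Marco-positive and 6 in Marco-negative cells and the anti-inflammatory cytokine Il10 had 22 UMIs in Marco-positive and 21 in Marco-negative cells, too few for a ratio to be read. Among 19 immediate early genes, 14 had ratios below 0 and 5 above, with a median log2 ratio of -0.10, and 1 was at least 1.5-fold higher and 1 lower. The higher was Fosb, an AP-1 subunit, on 32 UMIs in Marco-positive and 26 in Marco-negative cells (log2 ratio 0.59, -0.20 to 1.40), and it was at 0.20 without the 3 richest cells of each side. The lower was Egr1, a transcription factor induced by stimulation, at 26.2 CPM in Marco-positive and 45.2 CPM in Marco-negative cells (log2 ratio -0.79), though at 0.34 in cells with a Kupffer marker share of at least 2% and 0.07 in cells of 5000 to 8000 UMIs. Among the other chemokines, Ccl5 passed 1.5-fold on 45 UMIs in Marco-positive and 27 in Marco-negative cells, while Ccl6 and Ccl24 lay within 1.25-fold. Vcam1, an adhesion molecule of Kupffer cells and endothelium, stood at 552 CPM in Marco-positive and 420 CPM in Marco-negative cells (log2 ratio 0.40). Endothelial cells held 154 CPM of Vcam1, which may be their own RNA and is no measure of background.

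**Figure D4:**
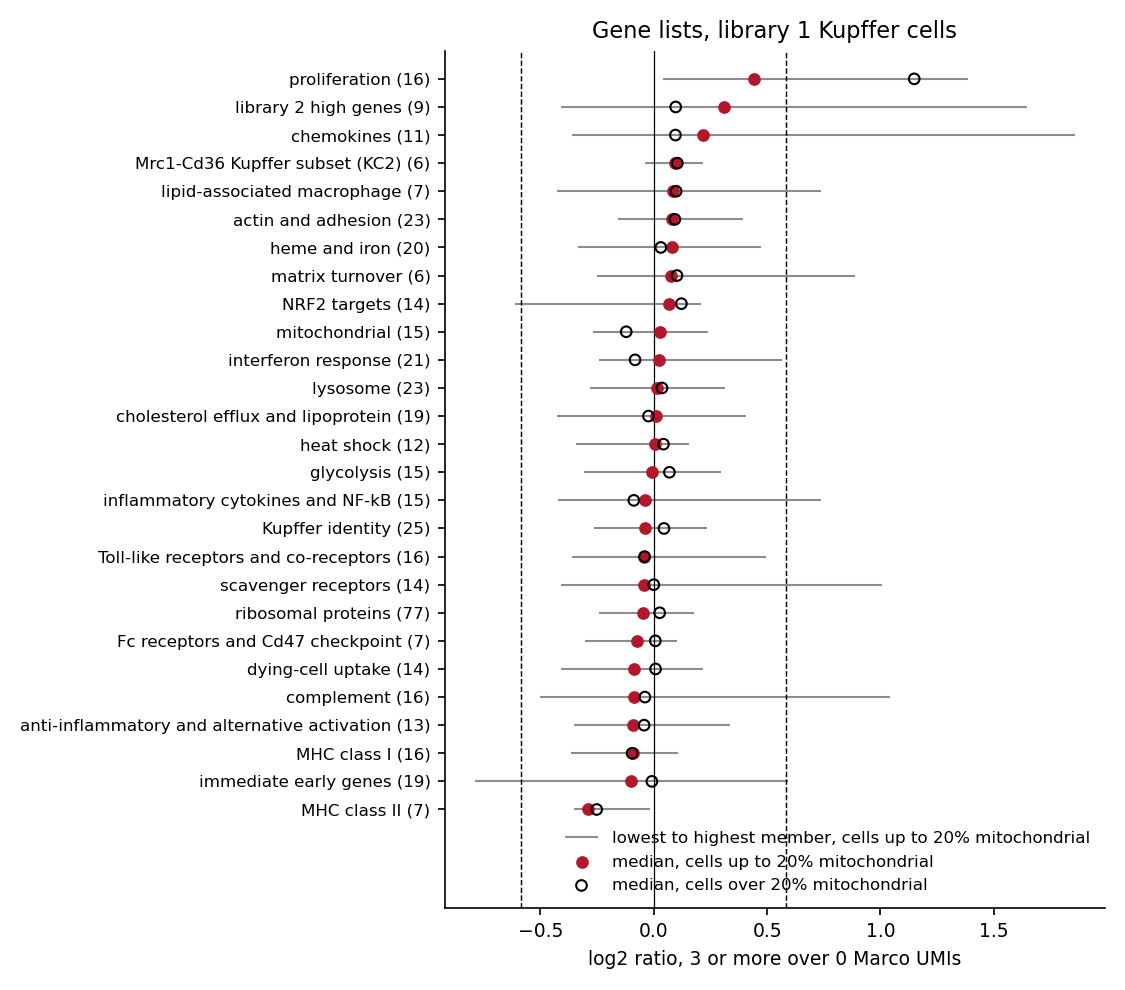
Log2 ratio of Marco-positive over Marco-negative cells (horizontal axis) for 27 gene lists, with the number of members measured in parentheses. Filled points are medians and grey lines the lowest and highest members in the 1106 cells, open points the medians in the cells over 20% mitochondrial UMIs, and dashed lines mark 1.5-fold. Proliferation genes have the highest and MHC class II genes the lowest median.

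Beside the hepatocyte and dendritic cell markers given above, markers of several other cell types were counted. Those of capsule or vein-associated macrophages summed to 497 CPM in Marco-positive and 567 CPM in Marco-negative cells (log2 ratio -0.19, -0.29 to -0.09). Of that sum Cd207 made up 384 CPM in Marco-positive cells. Endothelial markers outside the definition summed to 919 CPM in Marco-positive and 887 CPM in Marco-negative cells, stellate markers to 236 CPM in Marco-positive and 285 CPM in Marco-negative cells, monocyte markers to 419 CPM in Marco-positive and 447 CPM in Marco-negative cells and neutrophil markers to 71.9 CPM in Marco-positive and 63.9 CPM in Marco-negative cells. Of 11 neutrophil markers, 9 were at 0 in Marco-positive and 7 in Marco-negative cells. Erythroid markers summed to 358 CPM in Marco-positive and 181 CPM in Marco-negative cells, mostly in the single globin-rich cells given above. B and plasma cell markers, relevant to Cxcl13 as a B cell attractant, summed to 30.2 CPM in Marco-positive and 34.1 CPM in Marco-negative cells. Their part in the ratios was not tested.

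The mitochondrial limit left out 1089 cells of library 1 that met every other condition, and these served as a set of cells the definition had not used. They come from the same library and are no replicate. With the same division, 305 were Marco-positive and 468 Marco-negative, with median depths of 6920 UMIs in Marco-positive and 5131 in Marco-negative cells and median mitochondrial shares of 27.5% in Marco-positive and 29.0% in Marco-negative cells. Of 2983 genes with at least 50 CPM and 30 UMIs in either side, 7 (0.235%) were higher by 1.5-fold or more and 6 (0.201%) lower by as much. Cxcl13 again had the largest ratio of these genes, at 103.8 CPM in Marco-positive and 50.9 CPM in Marco-negative cells (log2 ratio 1.03, 0.72 to 1.34).

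The cell-cycle group also stood out there. All 14 measured proliferation genes had ratios above 0, with a median log2 ratio of 1.15. Stmn1 had 107 UMIs in Marco-positive and 37 in Marco-negative cells (1.81), Pclaf 59 in Marco-positive and 27 in Marco-negative cells (1.40), Top2a 63 in Marco-positive and 26 in Marco-negative cells (1.55) and Rrm2 41 in Marco-positive and 8 in Marco-negative cells (2.63). MHC class II genes lay below 0 in 7 of 7, with a median of -0.25, and Cd74 stood at 3382 CPM in Marco-positive and 4434 CPM in Marco-negative cells (-0.39). Apoe had a log2 ratio of -0.32 and Hmox1, at 1083 CPM in Marco-positive and 806 CPM in Marco-negative cells, had 0.43.

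Of the 15 highest genes of the main cells, 13 had ratios of the same sign in these cells, and of the 15 lowest, 13 did. Over the 2948 genes measured in both sets, 62.5% had the same sign. Several ratios were near 0 here, such as Ehd1 at -0.05, Kif23 at -0.01 and Dcn at -0.02. The genes that rested on single cells turned round, with Hba-a1 at -1.84, Hbb-bs at -1.04 and Fn1 at -0.24. Glrx5, at 0.45 (0.12 to 0.79), had a smaller ratio of the same sign. Of the genes lower by 1.5-fold or more in the main cells, none had an interval below 0 here. Gadd45g was at -0.40 (-0.83 to 0.01), Ythdf2 at -0.29 (-0.69 to 0.10) and Supt4a at -0.23 (-0.71 to 0.26). Ifi27 changed sign, at 0.09 (-0.38 to 0.56).

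**Figure D5:**
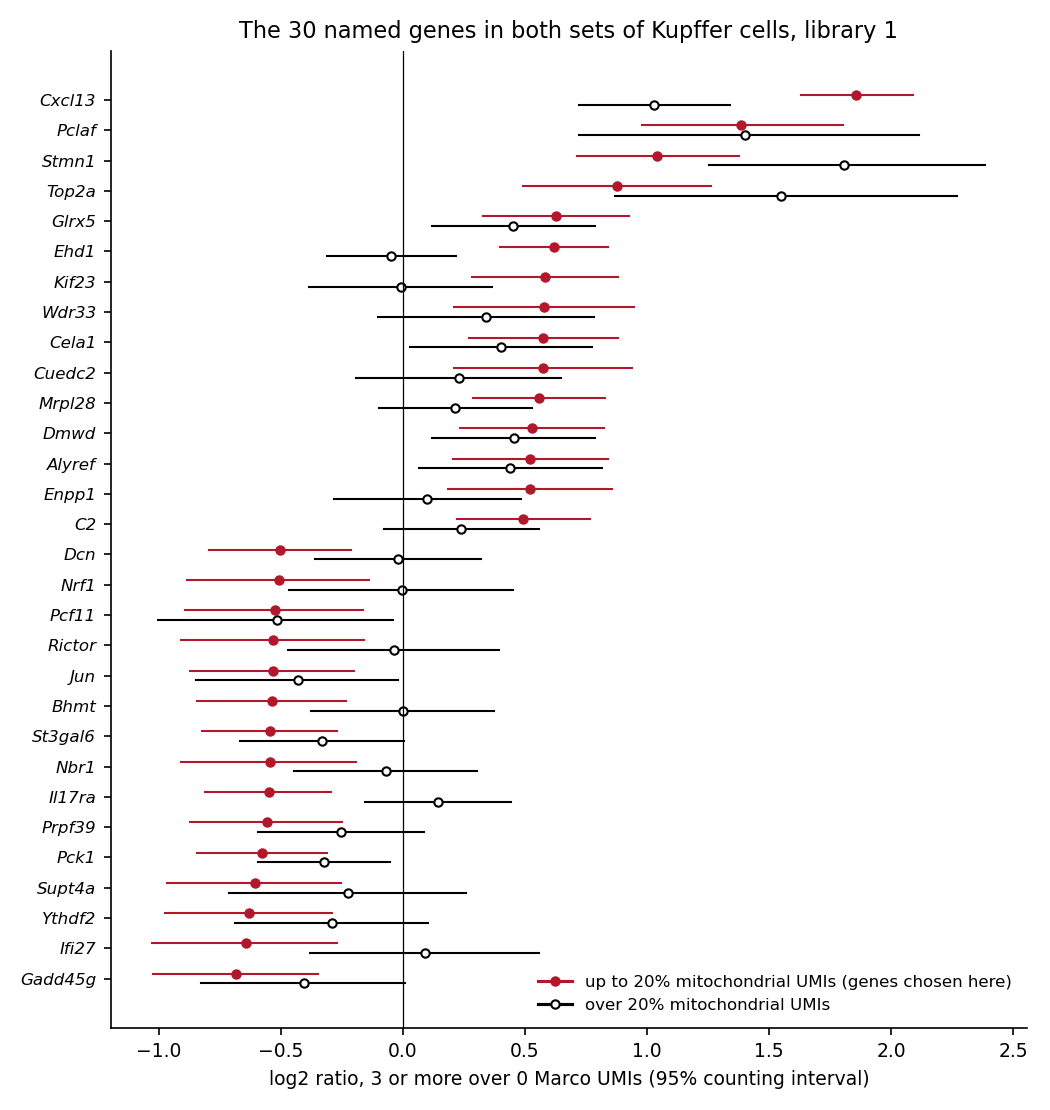
Log2 ratio of Marco-positive over Marco-negative cells with 95% counting intervals (horizontal axis) for the 15 highest and 15 lowest genes of the 1106 cells. Filled red points are the cells in which the genes were chosen and open black points the cells over 20% mitochondrial UMIs. Cxcl13, Pclaf, Stmn1 and Top2a lie well above 0 in both, while Ehd1, Kif23 and Il17ra do not keep their ratio. Of the 15 lowest genes, only 3 have an open-point interval wholly below 0.

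In library 2 every Kupffer cell held Marco, so its cells were ranked by their Marco share, and the 616 Marco-richest cells were set beside the 616 Marco-poorest. Marco was at 20869 CPM in the richest and 5687 CPM in the poorest cells, median depths were 9369 UMIs in the richest and 8398 in the poorest cells, and globin made up 2.21% of UMIs in the richest and 7.33% in the poorest cells. Cxcl13 was nearly undetected, with 23 UMIs in the richest and 2 in the poorest cells. Pclaf stood at 31.5 CPM in the Marco-richest and 13.3 CPM in the Marco-poorest cells (log2 ratio 1.24). Stmn1 stood at 46.3 CPM in the richest and 23.6 CPM in the poorest cells (0.97), and Ehd1 at 170.8 CPM in the richest and 109.6 CPM in the poorest cells (0.64). Top2a had a log2 ratio of 0.13 and Mki67 of -0.55. C2 and St3gal6 had the opposite sign to library 1, at -0.65 (-0.89 to -0.41) and 0.51 (0.10 to 0.93). Glrx5 was at -0.06, Gadd45g at -0.17, Ifi27 at -0.01, Ythdf2 at 0.14 and Supt4a at -0.24.

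MHC class II genes were low in library 2 as a whole and lower still where Marco was high. Cd74 stood at 204 CPM in the Marco-richest and 847 CPM in the Marco-poorest cells (log2 ratio -2.05), H2-Aa at 46.2 CPM in the richest and 197.9 CPM in the poorest cells (-2.10) and Apoe at 5306 CPM in the richest and 8658 CPM in the poorest cells (-0.71). The scavenger receptors Msr1 and Cd36 had log2 ratios of -0.03 and 0.22 between the sides of library 1, against 0.59 and 0.51 in this ranking of library 2. This ranking divides cells at far higher Marco levels than the sides of library 1, and the globin share differed with it. The part of globin in these ratios was not tested.

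Genes that stood high in library 2 were set beside the division of library 1. The 20 genes with the highest ratio of library 2 over library 1 were taken as a list chosen on these data. Of the 9 with at least 10 CPM in either side of library 1, 7 had ratios above 0 and 4 were at least 1.5-fold higher in Marco-positive cells, where 2.14% of all genes with that minimum were. The 4 were the globins Hba-a1, Hba-a2 and Hbb-bs and the guanine deaminase Gda, all with many UMIs from 1 cell. For Hba-a2 1 cell held 80 of the 84 UMIs in Marco-positive cells, and for Gda 1 cell held 17 of 45. Without the 3 richest cells of each side their log2 ratios were -0.29 and 0.44. Other genes had too few UMIs in library 1 for a ratio to be read. Lgals1, a galectin, had 5 UMIs in Marco-positive and 14 in Marco-negative cells of library 1, against 74.4 CPM in library 2. Sort1, a sorting receptor, had 4 UMIs in each side, against 67.0 CPM in library 2, and the fatty acid binding protein Fabp5 had 18 UMIs in Marco-positive and 14 in Marco-negative cells, against 112.2 CPM.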

How the data were processed

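UMI counts per gene and cell, for 26078 genes and 18633 barcodes of both libraries, were deposited by the authors, and per the file headers Cell Ranger 3.0.1 made them. The submitters' processing notes also name R 3.6.1 and the build GRCm38.p5, while the release of the annotation is not given in the sources used here. The deposited counts are whole numbers with no normalization.

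Barcodes were assigned to a library by their ending, and a barcode sequence also present in library 2 with more than 5 times its UMIs was left out. Library 1 held 33099802 UMIs in all, of which the 1106 cells held 8206300, and 29 of these cells shared their barcode sequence with library 2. No doublet caller was run, so droplets with several cells may remain; 26 Marco-positive and 14 Marco-negative cells had over 15000 UMIs. UMIs were summed per side and scaled to CPM without Marco. CPM carry exact Poisson intervals, shares exact Clopper-Pearson intervals (a share of 0 instead the limit of 3 cells) and ratios conditional exact intervals, all at 95% and for counting error only. Cells are not replicates, so no test was run. Where a side had no UMI, the ratio was taken against 3 UMIs. Lists were described over members reaching 10 CPM in a side. The scripts were tested on simulated data and used scipy 1.17.1 and numpy 2.4.6 in python 3.11.15, with pandas 2.3.3 and matplotlib 3.10.9.

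The text names genes by a rule. These are the 15 largest and 15 smallest ratios with an interval that excludes 1, taken over genes reaching 50 CPM and 30 UMIs in a side, without predicted genes and genes for which 1 cell held over 20% of the UMIs of the higher side. They are also members of the gene lists, and 18 genes always given, such as Hmox1, Cd163, Msr1, H2-Aa and Tnf. The list of genes high in library 2 was taken from these data. Definition, members and lists were chosen with earlier results of these data known. Alternatives changed the Marco threshold, depth, scaling, gene minimum, cell filters and the cells left out; the cells over 20% mitochondrial UMIs, the ranking of library 2 cells, a Marco threshold of 10, the depth classes 3000 to 5000, 5000 to 8000 and 8000 or more, and leaving out each gene's 3 richest cells or cells with cell-cycle UMIs were added after the data had been seen.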

Additional observations from a re-analysis of the deposited data

Results flagged for a closer look

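Cells of library 1 that met every condition but the mitochondrial limit were outside the comparison, and 28.0% of these 1089 cells (95% interval 25.4 to 30.8) held 3 or more Marco UMIs. This was above the level in endothelial cells of the same library, where 0 of 138 cells did, and close to the 29.5% of the 1106 cells up to the limit. After thinning to 3000 UMIs the shares were 14.9% in the cells over the limit and 17.6% in those up to it.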

How the results depend on the processing

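Counts of genes past 1.5-fold, 9 higher and 4 lower in the main comparison, varied with the setting. They were 14 and 7 with a Marco threshold of 5 UMIs, 34 and 45 with 10, and 1 gene was lower with 2. Thinning every cell to 3000 UMIs gave 29 and 55, setting the sides after thinning gave 22 lower, and cells of 5000 to 10000 UMIs gave 28 and 31. Cells of 3000 to 5000, 5000 to 8000 and 8000 or more UMIs gave 91 and 382, 76 and 67, and 25 and 27. A minimum of 10 CPM gave 177 and 179, and 100 CPM gave 4 and 0. Limiting mitochondrial UMIs to 10% gave 137 and 127, Kupffer markers of at least 2% gave 61 and 144, no endothelial UMI gave 16 and 15, and a total without mitochondrial, globin and ribosomal genes gave 15 and 9. Lower genes numbered 8 without cells over 15000 UMIs, 8 with means of per-cell CPM and 12 without the 3 richest cells of each gene. Most of these settings use fewer UMIs, and the part of that in the counts was not tested. The share of Marco-positive cells was 38.4% with a threshold of 2, 20.7% with 5 and 17.6% after thinning.

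Cxcl13 stayed past 1.5-fold in all 23 alternatives (log2 ratio 1.11 to 2.63). Ratios turned round for Fn1 (-0.21 without its 3 richest cells, -1.32 with a threshold of 10, -0.37 at 3000 to 5000 UMIs, -0.0049 at 5000 to 10000, -0.027 without cells over 15000, -0.082 at 10% mitochondrial, -0.43 with sides set after thinning), for Hba-a1 (-2.19 and -2.17 with thresholds of 10 and 5, -3.60 and -0.49 at 3000 to 5000 and 5000 to 8000 UMIs, -1.34 at 10% mitochondrial, -0.20 with no endothelial UMI, -0.22 with sides set after thinning) and for Hbb-bs (-0.85 without its 3 richest cells, -4.64 and -4.11 with thresholds of 10 and 5, -4.79, -0.88 and -0.87 at 3000 to 5000, 5000 to 10000 and 5000 to 8000 UMIs, -0.77 without globin-rich cells, -0.19 after thinning, -0.034 with per-cell means, -0.34 at 10% mitochondrial, -1.49 with no endothelial UMI, -1.77 with sides set after thinning). Pclaf was at -0.83 once cells with 3 or more cell-cycle UMIs were left out, and Pclaf is among the genes that chose them. Supt4a was at 0.39 with Kupffer markers of at least 2%; the cause was not tested. Other reported ratios below 1.5-fold, or of genes under 50 CPM, also changed sign. With Kupffer markers of at least 2% these were Dcn (1.10), Kif23 (-0.59), Egr1 (0.34), Jun (0.26), Bhmt (0.17), Enpp1 (-0.17), Il17ra (0.09), Hmox1 (-0.15) and Spic (-0.31). Kif23 was at -0.17 at 3000 to 5000 UMIs, Cuedc2 at -0.16 at 10% mitochondrial, Pck1 at 0.05 and Egr1 at 0.05 with sides set after thinning, Egr1 at 0.07 at 5000 to 8000 UMIs and Mki67 at -0.19 at 8000 or more. Of the 15 highest and 15 lowest genes, 20 kept their sign in every alternative with a value. The low-count genes Fabp5 (to -1.49), Lgals1 (to 1.27), Tnf (to 2.93), Il10 (to -0.39) and Sort1 (to -0.23) also changed sign. Of 598 list medians under alternatives, 79 had the other sign, over 21 of 26 lists, most of them near 0, and 73 moved by over 0.1 on the log2 scale. Of the 4 lists with a median over 0.1 in size, MHC class II and proliferation kept their sign throughout, while chemokines were as low as -0.06 and immediate early genes as high as 0.15. The size of both lists that kept their sign varied. MHC class II was at -0.05 with Kupffer markers of at least 2%, and proliferation at 0.04 in cells of 8000 or more UMIs.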

Other observations

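Lysosome genes, which digest what macrophages ingest, had a median log2 ratio of 0.01 over 23 members, with 0 past 1.5-fold. The shares over all 8259 genes with at least 10 CPM were 2.14% upwards and 2.17% downwards. Neu1, a sialidase, Lgmn, an endopeptidase, and Grn, progranulin, had log2 ratios of 0.32, 0.25 and 0.20, while Cd68 and Ctss, cathepsin S, had -0.28 and -0.16. Actin and adhesion genes had a median of 0.08 over 23 members, with Actb at 11517.8 CPM in Marco-positive and 10467.7 CPM in Marco-negative cells. The 77 ribosomal protein genes had a median of -0.05.

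Of all 8259 genes with at least 10 CPM in either side, 2.14% were at least 1.5-fold higher. Complement genes had a median log2 ratio of -0.09 over 16 members. Cd55, which protects cells from complement, was the 1 member past 1.5-fold, on 69 UMIs in Marco-positive and 41 in Marco-negative cells, and had a log2 ratio of 0.78 in the cells over 20% mitochondrial UMIs.

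The 74 Kupffer cells of library 1 left out for their endothelial markers included 31 (41.9%, 30.5 to 53.9) with 3 or more Marco UMIs, at a median depth of 7274.5 UMIs. Among 17 lymphoid cells of library 1, 1 held 3 or more.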
